A study of Mus musculus with 36 samples.

Results

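The choroid plexus genes of the mouse brain were followed here through every array of a study of Dicer conditional knockout (cKO) mice. A list of 10 genes known for their expression in the choroid plexus was taken (Ttr, Kl, Aqp1, Folr1, Kcnj13, Clic6, Otx2, Prlr, Sostdc1 and Slc4a5), and each of their probe sets that the array annotation ties to a single gene was read. That gave 15 probe sets for 9 genes, of 34945 such probe sets for 18193 genes in all. Ttr had 4 probe sets, Kl, Clic6 and Sostdc1 had 2 each and the other 5 genes had 1. Prlr had no probe set under that name in the annotation used and was not analysed here.

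RNA of the cortex, the hypothalamus and the hippocampus had been hybridised to 36 Affymetrix mouse genome arrays, 3 animals in each of 12 groups. All mice were Cre+;Dicer lox/lox on a C57BL/6J background, so that the controls also carried the floxed Dicer alleles and the Camk2a-driven, tamoxifen-dependent Cre. cKO mice received 10 mg of tamoxifen in all over 5 days at 8 weeks of age and control mice received vehicle, and tissues were taken 4 or 8 weeks later. Camk2a, a kinase of excitatory forebrain neurons, limits the deletion to the neurons that express it, and other cells of cKO mice keep Dicer. Within a tissue each array was a separate animal. By the animal numbers in the labels 11 animals gave both a cortex and a hypothalamus array, and 2 further control arrays at 4 weeks, 1 of each tissue, bear numbers that differ by 1 digit and may stand for 1 animal but were kept apart, whereas the arrays labelled hippocampus came from other animals.

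The choroid plexus is a folded sheet of epithelium over a vascular core that hangs in the brain ventricles and secretes cerebrospinal fluid. Its epithelium makes transthyretin, ion and water transporters and receptors at levels that neurons and glia do not approach, and the cerebral cortex itself holds no choroid plexus. Fragments of it can be carried along when brain tissue is dissected, and these genes are commonly read as a sign of that. In whole tissue, fewer choroid plexus cells and less RNA in each of them cannot be told apart.

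Values are log2 intensities after robust multi-array averaging, which the authors ran on each tissue separately, so levels were compared within a tissue only and not between probe sets. A gene counted as tested when a probe set of it was kept by a filter on low values, and the most variable of those kept was used. The filter was passed by 6 of the 10 genes in the cortex (Ttr, Kl, Folr1, Kcnj13, Clic6 and Sostdc1), by 7 in the hypothalamus (those 6 and Otx2) and by 6 in the arrays labelled hippocampus (Ttr, Folr1, Kcnj13, Clic6, Otx2 and Sostdc1). Aqp1 and Slc4a5 passed in none of the 3 tissues. Kcnj13 passed in the hypothalamus through 3 arrays alone. Groups were compared with limma in 1 fit of the 4 groups of a tissue, with Benjamini-Hochberg adjustment over all genes tested, and a gene was called at a false discovery rate of 15%.

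Before the values are given, the labels were set against tissue markers. In the 12 cortex arrays Lamp5, a gene of cortical neurons, lay between 11.08 and 11.76. The other genes of the cortical list were read on their probe sets of highest median. Rasgrf2 lay between 10.77 and 11.15, Cux2 between 9.58 and 9.88 and Fezf2 between 7.59 and 8.43. Tbr1 lay between 6.35 and 8.34, Rorb between 7.01 and 7.70 and Rspo1 between 5.72 and 6.88. These levels were not compared between tissues. In the 12 hypothalamus arrays Pmch, the precursor of melanin-concentrating hormone, lay between 13.27 and 13.59. The arrays labelled hippocampus did not show their markers in the same way. Dsp, which marks dentate granule cells, was 8.11 in 1 array, replicate 1 of the cKO group at 8 weeks, and lay between 3.24 and 3.69 in the other 11. Lct, a second gene of the dentate gyrus, was 8.51 in that array and lay between 3.24 and 3.66 in the other 11. Of the other 6 genes on the hippocampal list Prox1, C1ql2 and Iyd stood apart in the same array, at 6.25 against at most 4.78, 8.34 against at most 6.71 and 4.88 against at most 3.75. Wfs1 and Fibcd1 were highest there by less, at 9.58 against at most 9.16 and 7.75 against at most 7.67. Tdo2, on its probe set of highest median, was highest in another array, at 4.49 against 4.18. Its other probe sets differed from this and from each other. On 1 of them the median of the 12 arrays was 3.45 and the highest value 7.14, in an array not identified here. The remaining Tdo2 probe set lay between 2.86 and 3.40. Slc17a7, the vesicular glutamate transporter of cortical and hippocampal neurons, was 7.56 in cKO replicate 1 at 8 weeks, against 3.74 to 4.41. Neurod6, a transcription factor of the same neurons, was 9.05 in that replicate, against 2.68 to 3.31. Slc17a6, the transporter of subcortical glutamatergic neurons, lay between 10.55 and 11.38 in all 12, and that lowest value was again cKO replicate 1 at 8 weeks. Slc17a7, Neurod6 and Slc17a6 were added to the marker list after their values were seen. These 12 arrays are called "labelled hippocampus" in what follows, and many, but not all, of the values that rest on that replicate are also given without it.

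**Figure D1:**
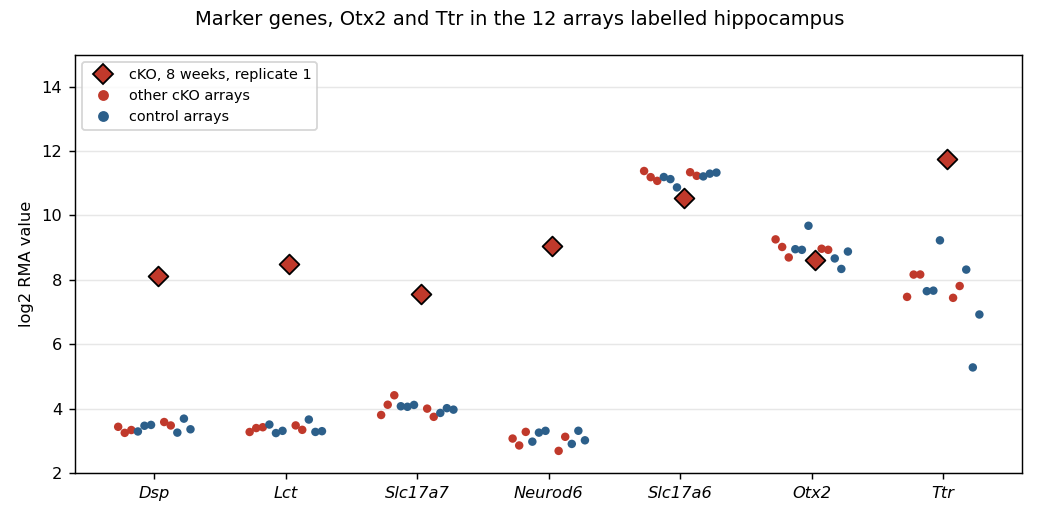
Log2 values (vertical axis) of 5 marker genes, Otx2 and Ttr in the 12 arrays labelled hippocampus, 1 point for each array. Replicate 1 of the cKO group at 8 weeks (diamond) stands apart for Dsp, Lct, Slc17a7, Neurod6 and Ttr, and the other 11 arrays reach at most 4.41 for the first 4 of these.

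In the cortex 3 arrays were set apart after the data were seen, replicate 3 of the cKO group and replicate 3 of the control group at 4 weeks and replicate 2 of the cKO group at 8 weeks. Their median over all tested genes was 6.43 to 6.44, which also held for the other cKO arrays at 4 weeks, against 6.28 to 6.34 in the remaining 7. That median therefore does not part the 3 from those other cKO arrays, and values without the 3 rest on a choice made by eye. Dicer1 itself, read by 2 probe sets, differed between cKO and control arrays by 0.05 to 0.45 on the log2 scale in the cortex and by -0.09 to 0.07 in the other tissues. The sources used here do not state whether those probes lie in the deleted exon, so they do not check the genotypes.

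Ttr encodes transthyretin, the carrier of thyroid hormone and of the retinol-binding protein, and is the most abundant transcript of the choroid plexus epithelium. In the cortex it was 7.75, 12.09 and 11.24 in the cKO arrays at 4 weeks, against 12.80, 9.48 and 11.86 in control arrays. At 8 weeks it was 10.85, 11.59 and 10.19 in cKO arrays, against 6.63, 7.54 and 10.52 in control arrays. High and low arrays occurred in both genotypes, and the groups overlapped at both times. The highest of the 12 cortex values exceeded the lowest by 6.17 on the log2 scale, which is 72.1-fold. The SD of Ttr within groups was 1.79, higher than that of every other gene tested in the cortex, where the median gene had 0.179.

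In the hypothalamus Ttr was 4.49, 5.10 and 6.62 in cKO arrays at 4 weeks, against 6.16, 4.85 and 5.45 in control arrays. The values at 8 weeks were 4.70, 7.22 and 5.49 in cKO arrays, against 4.19, 6.97 and 5.45 in control arrays. The groups overlapped at both times and each genotype held a low and a high array at 8 weeks. In both genotypes the low array was replicate 1 then and the high array replicate 2. Same-numbered arrays of the 2 genotypes deviated together over all tested genes there (r 0.20, 0.26 and 0.27), and the main fit did not pair them. The range over the 12 arrays was 3.03 on the log2 scale, or 8.16-fold.

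Among the arrays labelled hippocampus Ttr was 7.47, 8.16 and 8.17 in cKO arrays at 4 weeks, against 7.65, 7.66 and 9.23 in control arrays. At 8 weeks it was 11.76, 7.44 and 7.81 in cKO arrays, against 8.32, 5.28 and 6.92 in control arrays. The value of 11.76 belonged to the array that stood apart for Dsp and Lct. The range over the 12 arrays was 6.48 on the log2 scale, or 89.2-fold, and over the 11 arrays without that one 3.95, or 15.4-fold. The 4 Ttr probe sets moved together, with correlations between them over the 12 arrays of 0.987 to 0.999 in the cortex, 0.853 to 0.989 in the hypothalamus and 0.954 to 0.998 in the arrays labelled hippocampus. Over the 11 arrays without cKO replicate 1 at 8 weeks the last were 0.947 to 0.997.

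**Figure D2:**
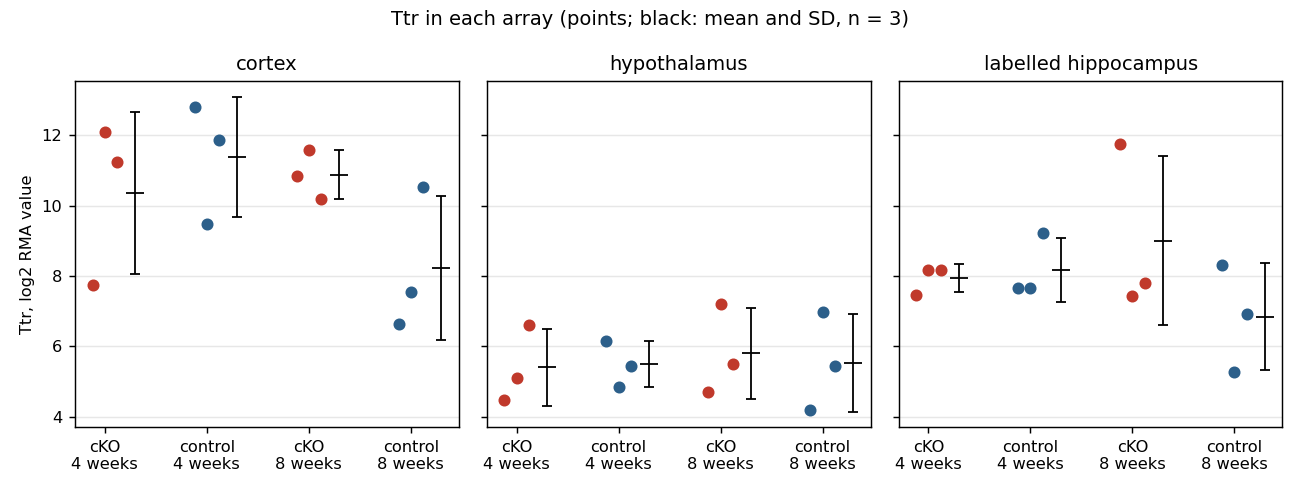
Ttr in each array, on the log2 scale (vertical axis), for the 4 groups of each tissue, cKO in red and control in blue, with the mean and SD of 3 animals in black. Cortex arrays run between 6.63 and 12.80, and on this probe set the genotypes overlap in every tissue at both times.

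The cKO minus control difference of Ttr in the cortex was -1.02 at 4 weeks (SE 1.21, adjusted p = 0.592 by limma) and 2.65 at 8 weeks (SE 1.21, adjusted p = 0.869). The value at 8 weeks had an unadjusted limma p of 0.049, and the exact two-sided permutation test of the 6 arrays gave p = 0.2, where 0.1 is the smallest that 3 against 3 can give. On 1 of the other 3 Ttr probe sets the groups did not overlap at 8 weeks, with 10.25, 11.54 and 9.80 in cKO arrays, against 6.54, 7.27 and 9.77 in control arrays. The group means at 4 weeks were 10.36 ± 2.30 in cKO and 11.38 ± 1.71 in control arrays (SD, n = 3 each), and at 8 weeks 10.88 ± 0.70 in cKO and 8.23 ± 2.04 in control arrays. In order of level, control arrays at 4 weeks came first, then cKO arrays at 8 weeks, cKO arrays at 4 weeks and control arrays at 8 weeks, and all neighbours in that order overlapped. The difference of differences, 8 minus 4 weeks, was 3.67 (SE 1.71, adjusted p = 0.410). In the hypothalamus the difference of Ttr was -0.08 at 4 weeks (SE 0.78, adjusted p = 0.998) and 0.26 at 8 weeks (SE 0.78, adjusted p = 0.999). In the arrays labelled hippocampus it was -0.25 at 4 weeks (SE 1.01, adjusted p = 0.995) and 2.16 at 8 weeks (SE 1.01, adjusted p = 0.767). Without cKO replicate 1 at 8 weeks, that last difference was 0.78 (adjusted p = 0.877).

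The other tested genes of the cortex carried the same pattern of high and low arrays on smaller scales. Kl encodes klotho, the coreceptor of a fibroblast growth factor that regulates phosphate, and was 4.31, 5.74 and 4.84 in cKO arrays at 4 weeks, against 5.20, 4.41 and 4.84 in control arrays. By 8 weeks it was 4.47, 4.40 and 4.43 in cKO arrays, against 3.93, 4.35 and 4.34 in control arrays, so that the groups did not overlap then, although the difference was only 0.23 (SE 0.30, adjusted p = 0.899). Its second probe set lay between 3.02 and 3.59, overlapped at 8 weeks and was lower in all 3 cKO arrays than in all 3 control arrays at 4 weeks. Sostdc1 encodes a secreted antagonist of BMP and WNT signals.

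Sostdc1 was 4.72, 5.82 and 5.23 in cKO cortex at 4 weeks, against 6.24, 4.44 and 5.39 in control cortex. At 8 weeks it was 4.81, 5.71 and 4.76 in cKO cortex, against 4.22, 4.55 and 4.63 in control cortex. The groups overlapped at 4 weeks and did not at 8 weeks, with a difference of 0.63 (SE 0.41, adjusted p = 0.869). Its second probe set did overlap at 8 weeks.

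Folr1 encodes the folate receptor that carries folate into the cerebrospinal fluid. It was 4.31, 5.96 and 5.12 in cKO cortex at 4 weeks, against 5.51, 4.30 and 6.29 in control cortex, and at 8 weeks 4.83, 5.31 and 4.73 in cKO cortex, against 4.62, 4.73 and 4.95 in control cortex. Clic6, a member of the chloride intracellular channel family, was 5.18, 6.00 and 5.14 in cKO cortex at 4 weeks, against 5.56, 4.27 and 5.91 in control cortex, and at 8 weeks 3.92, 4.95 and 4.44 in cKO cortex, against 3.23, 3.83 and 4.74 in control cortex. Both genes were highest in arrays that were high for Ttr, and their groups overlapped at both times.

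Kcnj13 encodes the inward rectifier potassium channel of the apical membrane of the choroid plexus epithelium. It was 6.77, 7.67 and 7.03 in cKO cortex at 4 weeks, against 7.25, 5.78 and 7.21 in control cortex, and at 8 weeks 6.46, 6.86 and 6.30 in cKO cortex, against 5.82, 5.91 and 6.32 in control cortex. Replicate 1 of the cKO group at 4 weeks, which was low for Ttr, was not low for Kcnj13, and the groups overlapped at both times. Of the genes below the filter, Otx2, the homeodomain transcription factor on which development of the choroid plexus depends, lay between 2.06 and 3.53 in the cortex, Aqp1, the water channel of its apical membrane, between 2.83 and 4.24, and Slc4a5, a sodium bicarbonate cotransporter of its epithelium, between 2.65 and 3.43.

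**Figure D3:**
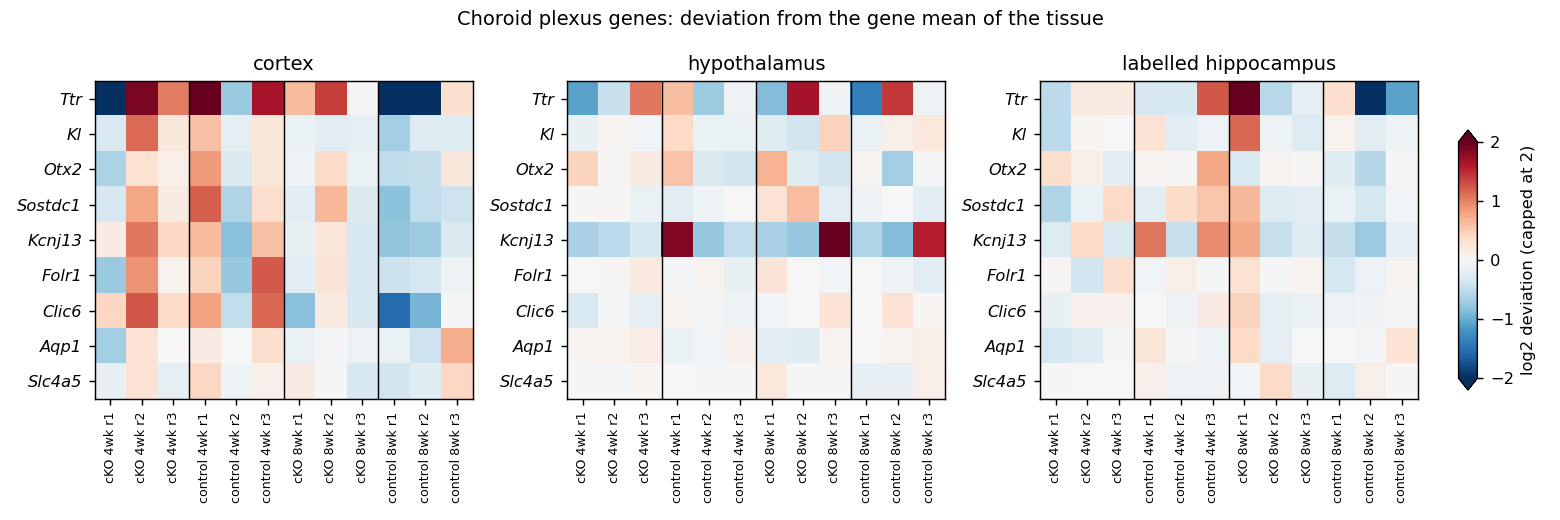
Deviation of each gene (rows) from its mean over the 12 arrays of the tissue (columns), in log2 units, red for higher and blue for lower; black lines part the 4 groups. Colours are capped at 2. In the cortex most genes of a column are red or blue together, in the hypothalamus Ttr and Kcnj13 are high in different arrays, and among the arrays labelled hippocampus replicate 1 of the cKO group at 8 weeks stands out.

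None of the 6 genes tested in the cortex was called at 4 weeks, when 5.23% of all tested genes were, and none had an unadjusted p under 0.05, whereas 3318 genes in all did. At 8 weeks none was called and 0% of all genes were; Ttr alone of the 6 had an unadjusted p under 0.05, as did 697 genes in all. For the difference of differences none of the 6 was called, against 0.0068% of all genes, and 1808 genes in all had an unadjusted p under 0.05 but none of the 6. The median difference of the 6 was 0.02 at 4 weeks, beside 0.11 for all tested genes, and 0.51 at 8 weeks, beside 0.02 for all. Groups did not overlap for 0 of the 6 at 4 weeks, where 19.1% of all genes were so parted, and for 2 of the 6 at 8 weeks, where 17.5% were. All 6 were higher in cKO arrays at 8 weeks, as were 55.3% of all genes. The 6 genes share their arrays and rose and fell together across them, so they are not 6 separate observations.

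In the hypothalamus none of the 7 tested genes was called by limma at 4 weeks, at 8 weeks or for the difference of differences, and 0% of all genes were in each of the 3. None of the 7 had an unadjusted p under 0.05, whereas 425, 1023 and 691 genes in all did. No gene of the 7 had groups that did not overlap, where 6.64% of all genes at 4 weeks and 12.5% at 8 weeks did. On the second probe sets they were parted for Clic6 at 4 weeks (lower in cKO) and for Kl at 8 weeks (higher in cKO). Sostdc1 had the lowest adjusted p at 8 weeks (0.802) with a difference of 0.33 (SE 0.16). It was 6.40, 6.72 and 5.89 in cKO arrays then, against 6.03, 6.10 and 5.90 in control arrays, and without cKO replicate 3 the difference was 0.55 with an adjusted p of 0.0268. The share of all genes called without that array is not given here.

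For the arrays labelled hippocampus none of the 6 tested genes was called at either time or for the difference of differences, and again 0% of all genes were. None of the 6 had an unadjusted p under 0.05, whereas 917 genes in all did at 4 weeks, 858 at 8 weeks and 1164 for the difference of differences. Groups did not overlap for 0 of the 6 at either time, where 10% of all genes at 4 weeks and 14.5% at 8 weeks did. All 6 differences were below 0 at 4 weeks, with a median of -0.22, and all 6 above 0 at 8 weeks, with a median of 0.25. Of all tested genes 50.5% were higher in cKO arrays at 4 weeks, with a median of 0.0016. At 8 weeks 45.1% were, with a median of -0.017. Folr1 (-0.017, SE 0.17) and Clic6 (-0.011, SE 0.15) lay close to 0 at 4 weeks. The 6 genes share their arrays, so they are not 6 separate observations. Without cKO replicate 1 at 8 weeks Clic6 and Sostdc1 turned to -0.10 and -0.06 at that time, and no gene was called.

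**Figure D4:**
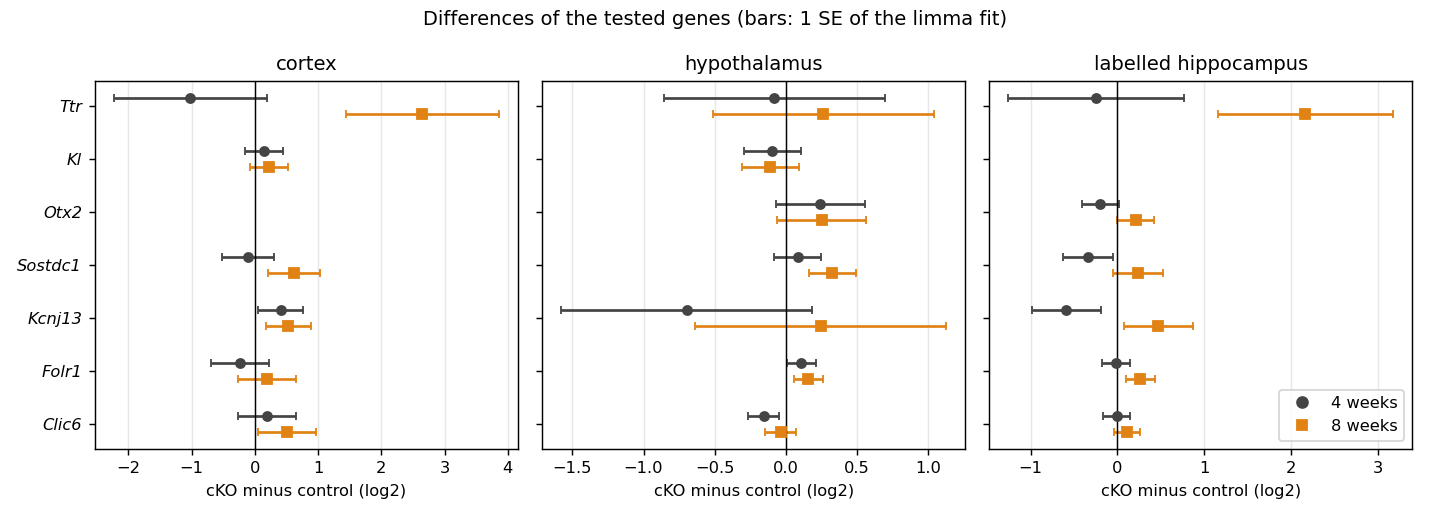
The cKO minus control difference of each tested gene in log2 units (horizontal axis, its own scale for each tissue), at 4 weeks (circles) and 8 weeks (squares), with bars of 1 SE from the limma fit. Ttr has the widest bars in the cortex and in the arrays labelled hippocampus, Kcnj13 in the hypothalamus, and no difference was called.

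The genes were next set against Ttr across the arrays of each tissue, 24 correlations in all over 12 arrays each, with permutation p-values adjusted over the 24. In the cortex all 8 other genes rose with Ttr. Pearson's r was 0.92 for Otx2 (Spearman's rho 0.94), 0.84 for Sostdc1 (0.94), 0.76 for Kcnj13 (0.88), 0.75 for Kl (0.85), 0.74 for Folr1 (0.90), 0.73 for Clic6 (0.78), 0.70 for Slc4a5 (0.75) and 0.62 for Aqp1 (0.69). The adjusted permutation p was 0.00048 for the r of Otx2, 0.0128 for Sostdc1, 0.0219 for Kl, Folr1, Kcnj13 and Clic6, 0.0323 for Slc4a5 and 0.060 for Aqp1, and for rho it lay between 0.00048 and 0.0344. With the 2 arrays farthest from the median of Ttr left out, r lay between 0.46 for Clic6 and 0.94 for Otx2. Between the deviations from the group means r lay between 0.76 and 0.95. Over the 9 arrays left after removal of the 3 set apart above, it lay between 0.62 and 0.92.

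Otx2, Slc4a5 and Aqp1 lay below the filter in the cortex. Among all 36 pairs of the 9 genes the median r in the cortex was 0.73 and 20 pairs exceeded 0.7. In the arrays labelled hippocampus the median was 0.36 with 5 pairs over 0.7, or 0.18 with 0 pairs without cKO replicate 1 at 8 weeks, and in the hypothalamus it was -0.02 with 1 pair.

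In the hypothalamus no relation with Ttr passed the threshold, with r between -0.39 for Otx2 and 0.37 for Clic6 and adjusted permutation p from 0.384 to 0.826. In the arrays labelled hippocampus r was 0.79 for Clic6, 0.76 for Kl and 0.69 for Sostdc1, with adjusted permutation p of 0.0219, 0.0490 and 0.0219. Those values rested in part on cKO replicate 1 at 8 weeks: without that array r was 0.44 for Clic6, 0.25 for Kl and 0.55 for Sostdc1 over the other 11. Kl and Slc4a5 lay below the filter in these arrays, and Kl ran from 3.61 to 5.29, with its highest value in that replicate. The rho of Sostdc1 was 0.74 (adjusted permutation p = 0.0235) over all 12 arrays, and that of Kl was 0.44 (0.310) and of Clic6 0.57 (0.127). Without cKO replicate 1 at 8 weeks rho was 0.66 for Sostdc1, 0.27 for Kl and 0.44 for Clic6. Slc4a5, which lay between 3.15 and 3.79, fell as Ttr rose by rank (rho -0.71, adjusted permutation p = 0.0338) with an r of -0.33 (0.387). Without the same array its rho was -0.75 and its r -0.41.

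The upstream sequences of 3 genes that moved with Ttr in the cortex are shown, since OTX2 is a regulator of choroid plexus genes. That movement does not single out the 3, because Aqp1 and Slc4a5 also rose with Ttr there. RefSeq (GRCm38.p6) gave windows for 6 of the 10 genes, namely Kcnj13, Kl, Aqp1, Slc4a5, Otx2 and Prlr, with 4 starts for Otx2 and 3 for Prlr. Each run is the 250 bases before a transcription start, 5′ to 3′ on the strand of the gene, in lower case with a match to the OTX2 core motif TAATCC, or to its complement GGATTA, in capitals. Kl lies on the plus strand at chr5:150952357-150952606, Kcnj13 on the minus strand at chr1:87394730-87394979 and the Otx2 start shown on the minus strand at chr14:48665110-48665359.
Kl: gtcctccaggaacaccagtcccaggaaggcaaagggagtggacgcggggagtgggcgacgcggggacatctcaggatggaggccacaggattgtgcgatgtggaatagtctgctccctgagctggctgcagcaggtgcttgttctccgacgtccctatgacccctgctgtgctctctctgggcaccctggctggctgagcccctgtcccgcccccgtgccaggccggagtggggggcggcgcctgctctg
Kcnj13: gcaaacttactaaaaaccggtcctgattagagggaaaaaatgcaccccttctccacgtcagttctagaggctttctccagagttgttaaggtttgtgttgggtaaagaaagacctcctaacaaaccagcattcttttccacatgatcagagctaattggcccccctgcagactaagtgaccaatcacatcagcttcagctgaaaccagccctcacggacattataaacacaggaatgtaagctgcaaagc
Otx2: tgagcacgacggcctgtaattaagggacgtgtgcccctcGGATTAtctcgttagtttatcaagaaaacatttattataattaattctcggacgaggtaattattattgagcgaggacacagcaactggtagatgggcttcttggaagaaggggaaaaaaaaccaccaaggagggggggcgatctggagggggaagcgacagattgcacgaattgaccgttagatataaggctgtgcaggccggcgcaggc
The motif occurred once, as GGATTA upstream of that Otx2 start, in 1 of the 11 windows of these genes, and in 6.25% of all 32851 windows of that length. The Otx2 start shown is thus the only one of its 4 with a match. The windows of Aqp1, Slc4a5, Prlr and the other Otx2 starts held none and are not printed. GC content was 66.8% for Kl, 45.2% for Kcnj13 and 48.4% for the Otx2 window, beside a median of 52.4% over all windows. A match is a description of the letters and was not tested as a binding site.

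The mean deviation of the tested genes from their tissue mean gives 1 choroid score for each array, a description for which no test was made. In the cortex it was -0.54, 1.16 and 0.39 in cKO arrays at 4 weeks, against 1.04, -0.60 and 0.87 in control arrays. After 8 weeks it was -0.16, 0.42 and -0.24 in cKO arrays, against -1.31, -0.90 and -0.13 in control arrays. Each genotype held high and low arrays at 4 weeks, and the 2 lowest scores were control arrays at 8 weeks. The score ranged over 2.47 in the cortex, 1.70 in the arrays labelled hippocampus (1.37 without cKO replicate 1 at 8 weeks) and 0.76 in the hypothalamus.

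Genes that were not on the list were ranked by their correlation with this score, among 2741 cortex genes with an SD of at least 0.3. The first 3 were Calml4, a calmodulin-like protein (r = 0.97), Ecrg4, a precursor of secreted peptides made in the choroid plexus (0.95), and Cldn2, the claudin of its tight junctions (0.89). Calml4 was 4.64, 6.07 and 5.38 in cKO cortex at 4 weeks, against 5.81, 4.66 and 5.75 in control cortex. Ecrg4 was 5.68, 7.26 and 6.56 in cKO cortex at 4 weeks, against 7.20, 4.97 and 6.68 in control cortex. Both followed the order of Ttr in these 6 arrays nearly array by array. All 3 are on a second list of 33 choroid plexus genes drawn up for this work. The next were Prr32 (0.83), Smim22 (0.73), Pik3cd (0.71), Lbp (0.70), which encodes the lipopolysaccharide-binding protein and is on the second list too, Sh3gl2 (0.69), Ccdc134 (0.67) and Lbh (0.67).

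Of that second list 30 genes were on the arrays and 23 were tested in the cortex. With the score 7 of the 23 correlated above 0.7, or 30.4%, beside 0.809% of all tested genes, and the median r of the list was 0.44 beside 0.18 for all. Its median deviation in each array correlated at 0.80 with the score. In the hypothalamus 1 of 25 of its genes exceeded 0.7, beside 1.10% of all genes, and in the arrays labelled hippocampus 0 of 20 did, beside 2.18%, or 1 of 20 beside 1.32% without cKO replicate 1 at 8 weeks.

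Between genotypes 1 of the 23 was called in the cortex at 4 weeks, where 5.23% of all genes were. This was Abca4, a transporter of retinoids, with 6.15, 5.79 and 5.88 in cKO arrays, against 5.64, 5.24 and 5.50 in control arrays, a difference of 0.48 (SE 0.15, adjusted p = 0.148). It was followed in order of p by Msx1 (0.38, adjusted p = 0.160), a homeodomain factor, Igf2 (0.45, 0.176), a growth factor, Lbp (0.49, 0.186) and Ace (0.26, 0.195), the angiotensin-converting enzyme. The median difference of the 23 was 0.22, beside 0.11 for all genes. In the other contrasts and tissues none of the list was called by limma, with 0 to 5 of its genes at an unadjusted p under 0.05. Calml4 in the arrays labelled hippocampus had a difference of 0.98 at 8 weeks (SE 0.28, adjusted p = 0.767). It was 5.56, 5.11 and 4.55 in cKO arrays, against 4.20, 3.52 and 4.56 in control arrays.

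Igf2 and Igfbp2 of the second list also stand on a list of 24 leptomeningeal genes. In the cortex at 4 weeks 17 of these 24 were higher in cKO arrays at the 15% threshold and 0 lower, with a median difference of 0.70, where 5.23% of all tested genes were called, 625 higher and 144 lower. Their median deviation ranged over 0.31 to 0.47 in cKO arrays, against -0.47 to 0.03 in control arrays. The choroid scores of the same arrays were -0.54 to 1.16 in cKO and -0.60 to 1.04 in control. The correlation of the leptomeningeal median with the score in the cortex was 0.24, and with Ttr it was 0.07 (Spearman's rho 0.22, adjusted permutation p = 0.878 over a family of 12 for r and 0.742 for rho). With the 2 arrays farthest from the median left out that r was 0.72, so the value of 0.07 rested on those arrays. Of 13 tested ependymal genes 2 were called higher in cKO arrays at 4 weeks and 0 lower, beside the same 5.23% of all genes. The difference between the 3′ and 5′ actin probe sets, a sign of RNA integrity, correlated at -0.64 with the score over the 12 cortex arrays, and its part in the result was not tested.

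In the hypothalamus Kcnj13 fell into a low and a high set of arrays. It was 4.58, 4.69 and 4.90 in cKO arrays at 4 weeks, against 7.07, 4.46 and 4.73 in control arrays. At 8 weeks it was 4.57, 4.47 and 7.45 in cKO arrays, against 4.62, 4.35 and 6.79 in control arrays. The 12 values thus fell into 9 between 4.35 and 4.90 and 3 between 6.79 and 7.45, with both genotypes among the 3. Ttr in these 3 arrays was 5.49 in the cKO array and 6.16 and 5.45 in the control arrays, below the 7.22 and 6.97 of 2 arrays with low Kcnj13. Kl was also highest in these 3 arrays, at 6.06 in the cKO array and 6.00 and 5.81 in the control arrays, against at most 5.71 in the other 9, and Kl and Kcnj13 were the 1 pair of the 36 above 0.7 there.

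The 3 arrays of high Kcnj13 were those of the highest leptomeningeal median. It was 1.64 in replicate 3 of the cKO group at 8 weeks, 1.04 in replicate 3 of the control group at 8 weeks and 0.84 in replicate 1 of the control group at 4 weeks, against at most 0.13 in the other 9. Since the arrays fell into separate clusters, no correlation of Kcnj13 with that median is given over all 12, and among the 9 it was 0.27. Cdh1, the epithelial cadherin, which was 8.26, 7.27 and 7.75 in the same 3 arrays in that order, Foxc2 and Slc47a1, a transporter of the leptomeninges, stood among the 10 genes most like the hypothalamic score. The 10 were Slc9a2, Lypd2, Cdh1, Foxc2, Col6a1, Bmp7, C2, Dapl1, Ccn3 and Slc47a1, with r between 0.79 and 0.85 among 820 genes, and the leptomeningeal list had a median r of 0.62 with the score. These r values are over all 12 arrays, and Kcnj13 is itself part of the score. They depend on the same 3 arrays and are not a separate observation. Other list medians also went with that score over the 12 arrays. The r was -0.71 for 7 RNAs retained in the nucleus, listed for RNA quality, and 0.62 for striatal genes, beside 0.64 for the leptomeningeal list. For the actin difference it was 0.15, and the part of RNA quality was not tested. The ependymal median fell as Ttr rose in the hypothalamus (r = -0.69, rho -0.76, adjusted permutation p = 0.0388 each), with an r of -0.48 without the 2 farthest arrays.

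**Figure D5:**
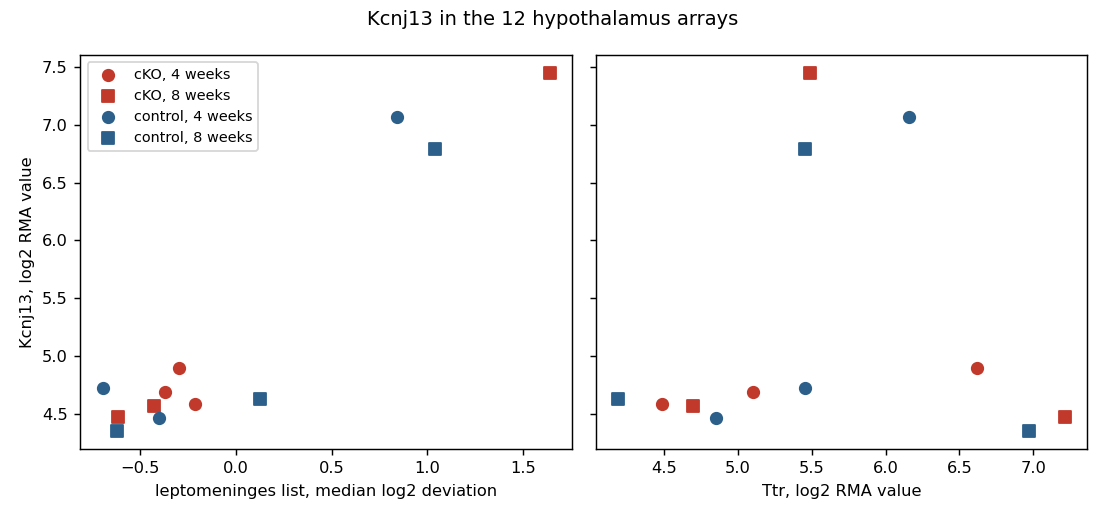
Kcnj13 in the 12 hypothalamus arrays (vertical axis, log2) against the median log2 deviation of the leptomeningeal list (left) and against Ttr (right), cKO in red and control in blue. The 3 arrays with Kcnj13 at 6.79 or more are those with a leptomeningeal median of 0.84 or more, and their Ttr values lie in the middle of the range.

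Kcnj13 in the arrays labelled hippocampus was 5.73, 6.38 and 5.69 in cKO arrays at 4 weeks, against 7.08, 5.54 and 6.95 in control arrays. The values at 8 weeks were 6.75, 5.54 and 5.74 in cKO arrays, against 5.53, 5.28 and 5.81 in control arrays. Its correlation with the leptomeningeal median over the 12 arrays was 0.70 (Spearman's rho 0.71, adjusted permutation p = 0.0388 for each over the family of 12), and 0.70 with the 2 farthest arrays left out. Its r with Ttr was 0.61 (adjusted permutation p = 0.0575). Over the 11 arrays other than cKO replicate 1 at 8 weeks the r was 0.79 with the leptomeningeal median and 0.54 with Ttr. In the cortex its r with the leptomeningeal median was 0.52 (adjusted permutation p = 0.207, Spearman's rho 0.51, 0.227), and 0.92 with the 2 farthest arrays left out.

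By RefSeq, Kcnj13 lies in the region of Gigyf2, a gene of the opposite strand. The 4 Gigyf2 probe sets ranged over at most 0.70 on the log2 scale in the hypothalamus, beside 3.10 for Kcnj13, and the part of overlapping transcripts in its values was not tested.

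Otx2 was measured above the filter in the hypothalamus and in the arrays labelled hippocampus. In the arrays labelled hippocampus it was 9.26, 9.02 and 8.70 in cKO arrays at 4 weeks, against 8.95, 8.93 and 9.68 in control arrays. At 8 weeks it was 8.61, 8.97 and 8.93 in cKO arrays, against 8.66, 8.34 and 8.88 in control arrays. It varied by 1.34, with or without cKO replicate 1 at 8 weeks, where Ttr varied by 6.48, or by 3.95 without that array, and its level in cKO replicate 1 at 8 weeks, the array of highest Ttr, was the second lowest of the 12. Besides the choroid plexus, neurons of the midbrain and thalamus are known to make Otx2. Tcf7l2, a transcription factor of thalamic and midbrain neurons, lay between 8.56 and 10.61 in these arrays on its brightest probe set. It stands on a list of thalamic genes, and the others were read on their probe sets of highest median. Calb2 lay between 10.40 and 11.08, Rora between 9.61 and 10.38, Zic1 between 8.23 and 8.97 and Lef1 between 8.16 and 8.90. Plekhg1 lay between 6.95 and 7.40, Rgs16 between 6.41 and 7.19, Prkcd between 5.79 and 7.18 and Synpo2 between 5.96 and 6.56. Gbx2 lay between 3.08 and 3.75. The source of Otx2 in these arrays was not tested. In the hypothalamus Otx2 lay between 4.78 and 6.17, and its r with Ttr was -0.39.

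Clic6 in the hypothalamus lay between 8.68 and 9.28, a range of 0.60 on the log2 scale beside 3.03 for Ttr, and 2.77 for Clic6 itself in the cortex. Kl lay between 5.24 and 6.06 and Folr1 between 5.47 and 5.94 in the hypothalamus. The within-group SD of the tested genes had a median of 0.64 in the cortex, beside 0.18 for all genes, 0.29 in the hypothalamus, beside 0.13, and 0.36 in the arrays labelled hippocampus, beside 0.14 (0.33, again beside 0.14, without cKO replicate 1 at 8 weeks). It was above the 90th percentile of all genes for 6 of 6 genes in the cortex, 4 of 7 in the hypothalamus and 4 of 6 in the arrays labelled hippocampus.

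The genes most like the score in the arrays labelled hippocampus were Rspo2 (r = 0.93), a secreted activator of WNT signals, Kcnf1 (0.89), Gm5089 (0.87), Arhgap15 (0.86), Dkk3 (0.85), Fibcd1 (0.84), Pcdh20 (0.83), Fosl2 (0.83), C1ql3 (0.83) and Kbtbd11 (0.82), among 1038 genes. Fibcd1 is on the hippocampal marker list. Of the 10 genes 9 were highest in cKO replicate 1 at 8 weeks, and Fosl2 was highest in control replicate 3 at 4 weeks. No gene of the second choroid plexus list was among them. Without that array the first 3 were Gabrr2 (0.89), Epyc (0.87) and Tmtc4 (0.82), and Fosl2 (0.74) alone of the earlier 10 stayed among the first 10.

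The 11 animals with both a cortex and a hypothalamus array were compared across tissues. Ttr in the cortex correlated with Ttr in the hypothalamus at r = 0.19 (permutation p = 0.566, Spearman's rho 0.19, permutation p = 0.576), and with the 2 animals farthest from the cortex median left out at 0.30. The choroid scores of the same animals correlated at 0.09 over all 11 and at 0.63 with the 2 farthest animals left out, so that value rested on 2 animals. With the 2 control arrays of like number taken as 1 animal, the 12 animals gave 0.27 for the score and 0.23 for Ttr.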

How the data were processed

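RNA was hybridised to 1-colour Affymetrix mouse genome arrays. The deposited values were log2 intensities that the authors had made by robust multi-array averaging (RMA, version not given in the sources used here), with background correction and quantile normalization run on the arrays of each tissue separately. The study filtered probe sets by detection calls, which were not used here. Of 45101 probe sets 34945 had 1 annotated gene, 932 several, 9160 none and 64 were controls. No column of the value table lacked a sample (0 columns).

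Annotated probe sets were ranked by their third-highest value over the 12 arrays of a tissue and kept until a set number of genes was reached. For each gene the probe set of highest variance among those kept was taken. The lowest value kept was 4.30 (cortex), 4.88 (hypothalamus) and 4.64 (labelled hippocampus), which left 14713, 15460 and 14527 genes. The 4 groups of a tissue were fitted with limma 3.58.1 (R 4.3.3, lmFit and eBayes, two-sided), with a false discovery rate of 15%. The fit was tested on simulated data with 200 changed genes in each tissue. Correlations had 100000 permutations. Where nothing says that replicates of a group share a litter or a day, p-values measure the spread between these animals. The number of arrays limits the precision of every value.

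The genes, the comparison lists and the tests were chosen with earlier results of these data known. Named besides the 10 genes were up to 5 genes of a second choroid plexus list with the lowest p in a contrast, and the 10 genes most like the score in each tissue. Same-numbered arrays of the 2 genotypes deviated together, with every correlation over 0.1, only in the hypothalamus at 8 weeks (0.20, 0.26 and 0.27), where the numbers were read as pairs from the data and not from the labels. Alternatives were no filter or 10000 genes, other probe sets, arrays shifted to a common median, limma with trend and robust settings or array weights, the 6 arrays compared alone, the methods' t-test, the replicate number as a block, a rate of 5% and leaving out each array. Leaving out 3 cortex arrays, the correlations, ranges and SDs without 1 array labelled hippocampus and the joining of 2 like-numbered control arrays were chosen after seeing the data.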

Additional observations from a re-analysis of the deposited data

How the results depend on the processing

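No gene of the 10 was called in the main setting, and differences that change sign below had not passed the threshold. With array weights 2 genes were called in the cortex at 4 weeks (Kcnj13 0.90, adjusted p = 0.0621, and Clic6 0.80, adjusted p = 0.127, by limma), 1 for the difference of differences in the cortex and 1 in the hypothalamus at 8 weeks (Sostdc1 0.51, adjusted p = 0.127). Leaving out 1 array gave 0 to 1 calls in the hypothalamus at 8 weeks. The share of all genes called in these settings is not given here, so these counts are not read as particular to the 10 genes. The range of the choroid score in the arrays labelled hippocampus was 1.12 as a median over genes and 0.851 without Ttr, against 1.70. The cause of these shifts was not tested.

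With the probe set of highest mean, Clic6 turned to -0.11 and -0.0363 in the cortex (4 and 8 weeks) and to 0.0848 and -0.17 in the arrays labelled hippocampus. With array weights, Sostdc1 turned to 0.21 and Folr1 to 0.47 in the cortex at 4 weeks, Kl to 0.0428 and Ttr to 0.0275 in the hypothalamus at 4 weeks, Kcnj13 to -0.75 there at 8 weeks, and Clic6 to 0.0244 and -0.0194 in the arrays labelled hippocampus. Without the 3 cortex arrays that were set apart after the data were seen Folr1 was 0.23 at 4 weeks. With 10000 genes Ttr was 0.0018 in the hypothalamus at 4 weeks, and with shifted arrays Folr1 was 0.0295 and Clic6 0.0357 in the arrays labelled hippocampus at 4 weeks.

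With each array left out in turn, differences in the cortex at 4 weeks ran over -0.56 to 0.34 for Sostdc1, -0.77 to 0.23 for Folr1, -1.97 to 0.29 for Ttr, -0.24 to 0.47 for Kl, -0.29 to 0.52 for Clic6 and -0.0693 to 0.66 for Kcnj13. In the hypothalamus they ran over -0.69 to 0.37 for Ttr, -0.19 to 0.0801 for Kl and -1.18 to 0.13 for Kcnj13 at 4 weeks. At 8 weeks they ran there over -0.0835 to 0.45 for Otx2, -0.14 to 0.0534 for Clic6, -0.36 to 0.0483 for Kl, -0.44 to 0.98 for Ttr and -0.73 to 1.01 for Kcnj13. In the arrays labelled hippocampus they ran over -0.0730 to 0.0661 for Clic6, -0.19 to 0.17 for Folr1, -0.33 to 0.0496 for Otx2 and -0.51 to 0.28 for Ttr at 4 weeks, and over -0.0981 to 0.23 for Clic6 and -0.0606 to 0.39 for Sostdc1 at 8 weeks.

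With the replicate number as a block 0 of the genes were called in each comparison, and the block changed no call, including the hypothalamus at 8 weeks.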
